A study of Mus musculus with 4 samples.

Results

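The 10 immediate early genes described here are Fos, Fosb, Jun, Junb, Atf3, Egr1, Nr4a1, Ier2, Dusp1 and Zfp36, taken by name from a fixed list of 10 among the 29897 genes in the deposited files. All 10 were found in the files and all 10 passed the low-count filter in every cell class tested. They were measured by droplet single-cell RNA sequencing of mouse colon, in 2 libraries labelled control and 2 labelled CCl4. Carbon tetrachloride (CCl4) is a liver toxin used to bring on cirrhosis in rodents. The mice given CCl4 were specific pathogen-free, 6 weeks old at the start, and received it for 6 weeks. The control libraries carry no age or duration in their labels. Strain, sex and vehicle are not given in the sources used here, nor is the number of animals in a library. All 4 suspensions were made by enzymatic digestion of the tissue with a commercial dissociation kit.

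Immediate early genes are the first genes that a cell transcribes after a stimulus such as a growth factor, a cytokine, depolarisation or damage, and they need no new protein for it. Signals that run through MAP kinases, SRF with its ternary complex partners, and CREB switch them on within minutes, and their unstable mRNAs fade soon after. Enzymatic dissociation of live tissue is itself known to induce them, so in single-cell data their mRNA can come from the animal or from the handling of the tissue. No library of undissociated tissue or of tissue with transcription blocked was analysed here, so the part of dissociation in the levels below was not tested.

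The genes were ordered by role. Fos (chr12:85473890-85477273), Fosb (chr7:19302696-19310051), Jun (chr4:95049034-95052222) and Junb (chr8:84974484-84978718) encode subunits of the dimeric transcription factor AP-1. Atf3 (chr1:191170296-191218039) encodes a stress-induced factor of the same basic leucine zipper class. Egr1 encodes a zinc finger transcription factor, and Nr4a1 (chr15:101254269-101274795) an orphan nuclear receptor induced by antigen receptor signals in lymphocytes. Ier2 (chr8:84661331-84662852) encodes a small nuclear protein. Dusp1 (chr17:26505590-26562128) encodes a phosphatase that switches MAP kinases off, and Zfp36 (chr7:28376784-28380253) encodes tristetraprolin, which speeds the decay of cytokine mRNAs. Positions are from GENCODE M21 on GRCm38.

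CREB and ATF factors bind the cAMP response element, whose core half-site is TGACG. RefSeq promoter windows (GRCm38.p6, 250 bases before to 50 after the start) were matched for 8 of the 10 genes, and Egr1 and Ier2 were not matched. For Atf3, Nr4a1 and Dusp1 the RefSeq start used lies inside the wider GENCODE span given above, not at its edge. TGACG was searched on both strands, and 6 of these 8 windows held it, against 20.8% of 32851 windows of the same length. The stretches that hold it are shown because these 6 genes shared it without being chosen for it. They run 5′ to 3′ on the strand of the gene, upstream of the start, with TGACG or its reverse complement CGTCA in capitals, at chr12:85473731-85473858 (plus strand, Fos), chr7:19310071-19310135 (minus, Fosb), chr8:84978820-84978884 (minus, Junb), chr1:191183334-191183370 (minus, Atf3), chr15:101266596-101266840 (plus, Nr4a1) and chr17:26508578-26508693 (minus, Dusp1).
Fos: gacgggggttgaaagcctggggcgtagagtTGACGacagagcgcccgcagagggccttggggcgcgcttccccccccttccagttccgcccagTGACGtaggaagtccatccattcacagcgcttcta
Fosb: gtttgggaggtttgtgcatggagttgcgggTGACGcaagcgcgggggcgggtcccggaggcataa
Junb: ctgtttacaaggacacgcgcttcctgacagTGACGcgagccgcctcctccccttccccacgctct
Atf3: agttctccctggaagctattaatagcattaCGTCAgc
Nr4a1: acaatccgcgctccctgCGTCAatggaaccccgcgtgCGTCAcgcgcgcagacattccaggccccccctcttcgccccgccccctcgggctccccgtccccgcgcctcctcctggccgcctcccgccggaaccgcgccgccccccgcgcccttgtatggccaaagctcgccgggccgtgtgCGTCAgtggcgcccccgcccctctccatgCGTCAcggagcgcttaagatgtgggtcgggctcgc
Dusp1: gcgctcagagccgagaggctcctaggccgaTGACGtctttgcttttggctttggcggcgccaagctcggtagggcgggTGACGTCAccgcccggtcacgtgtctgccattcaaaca

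Nr4a1 held 4 copies of the half-site in this window, Fos held 2 and Fosb, Junb and Atf3 held 1 each. The full palindrome TGACGTCA was found in 1 of the 8 windows, that of Dusp1, where both of its arms were counted among 3 half-sites (1.79% of all windows hold it). TATAAA was found in the windows of Fos and Junb (13.6% of all windows), and a CArG box, the sequence that SRF binds, in that of Zfp36 (1.63%). TGACTCA, the AP-1 site, was found in 0 of the 8 windows (5.20% of all windows). Jun held none of these motifs in its window. A match is a sequence match in a short window and was not tested for binding.

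The libraries held 55834301 and 58667918 counts in the control group against 92383719 and 74643979 with CCl4, and 36466 cells were used. Clusters were made without the 10 genes, and 30034 cells fell into 11 classes that each had 50 or more cells per library. Class names are short for "glia-like", "T-like" and so on, and of 66 class markers 62 were highest in the class they name. The same markers gave the names, so this count is no test of them. The exceptions were Ly6c2 and Ccr2 for macrophages and monocytes, Cd4 for T cells and Car4 for colonocytes. The larger T cluster (3147 cells) had a marker score of 3.85 for T cells and 2.89 for natural killer and innate lymphoid cells. With stress genes allowed among the variable genes, the T class held 1572 cells. An unnamed cluster of 1839 cells, led by Icos, Emb and Il22, then scored almost alike for both types. The T class may thus pool innate lymphoid-like cells with T cells, and their part in its levels was not tested. Undivided epithelial cells carry the shared epithelial markers without a lead for 1 epithelial type, and 0 of these 5 markers were highest there. The median mitochondrial share of the cells used was 4.84% and 4.55% for the control against 7.52% and 6.84% for the CCl4 libraries. Levels are CPM, the gene's summed count per 1000000 summed counts of the class, scaled between libraries by edgeR, and n = 4 libraries unless stated. Levels of different genes were not compared, since the deposited counts carry no length.

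Glia-like cells held the most immediate early gene mRNA of the 11 classes. The 10 genes together took 2.07% and 2.33% of their counts in the control against 1.99% and 2.15% in the CCl4 libraries, against 0.494% to 0.655% in lymphatic endothelial cells and 0.506% to 0.563% in plasma cells. Endothelial cells followed with 1.17% to 1.31%. Immunoglobulin fills much of a plasma cell's counts and lowers its share, so the plasma share is not read as a low level of these genes. Glia led for Fos, Fosb, Jun and Egr1, T cells for Junb and Nr4a1, macrophages and monocytes for Atf3 and Zfp36, endothelial cells for Ier2, and fibroblasts for Dusp1. No class led for all 10 genes.

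Fos stood at 5995, 6154, 5111 and 5581 CPM in glia, where the first pair of values is control libraries 1 and 2 and the second pair CCl4 libraries 1 and 2, as in all such series below. The next class, smooth muscle, held 4597, 4223, 4397 and 4182 CPM, so the 2 classes did not overlap. Endothelial cells (3153 ± 235 CPM, SD) and fibroblasts (2287 ± 249) came next, each apart from its neighbours. Between macrophages and monocytes (1632 ± 139) and undivided epithelial cells (1073 ± 90.4) the ranges of all 6 neighbouring pairs overlapped. The mean in glia was 5.32 times that in undivided epithelial cells.

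Fosb, a close relative of Fos, was also highest in glia, at 1696, 1939, 1638 and 1946 CPM. T cells came next with 1107, 1102, 1227 and 1221 CPM and overlapped no other class. Lymphatic endothelial cells were lowest, with 141, 103, 218 and 366 CPM. The spread of this class was wide, and it held between 63 and 109 cells a library.

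Jun, the AP-1 subunit that can pair with itself, was highest in glia at 2561, 2935, 2660 and 2964 CPM. Colonocytes followed at 2517, 2538, 2285 and 2055 CPM and did not overlap glia. T cells were lowest at 692, 797, 590 and 622 CPM, below every library of every other fitted class. Junb showed the opposite place for T cells, which led with 1885, 2272, 2173 and 2019 CPM. No library of another fitted class exceeded 799 CPM for Junb, the value of macrophages and monocytes in control 2. Plasma cells were lowest for Junb, at 180 ± 20.6 CPM.

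Atf3 had no class that stood apart at the top. Macrophages and monocytes held 1302, 1170, 1520 and 1311 CPM, glia 1175, 1194, 1102 and 1179 CPM, and goblet cells 1117, 968, 1151 and 940 CPM. The range of glia overlapped both others, and macrophages and monocytes lay above goblet cells without overlap. By the share of cells with at least 1 Atf3 count after thinning every cell to 1000 counts, glia came first (52.4%) and macrophages and monocytes next (50.5%). Plasma cells were lowest, at 205 ± 35.3 CPM.

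Egr1, at chr18:34859823-34864984, spanned the widest range, from 7401 ± 650 CPM in glia to 264 ± 16.9 in plasma cells, a ratio of 28.1. In glia it stood at 6613, 8116, 7180 and 7694 CPM. Fibroblasts (2994 ± 52.5), endothelial cells (2573 ± 163) and smooth muscle (1761 ± 132) followed, and the ranges of these 3 did not overlap one another. T cells, at 395 ± 13.5 CPM, were below every class but plasma cells.

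Nr4a1 was highest in T cells, at 2394, 2412, 1944 and 1903 CPM, followed by smooth muscle (972 ± 27.6) and glia (789 ± 25.2), with no overlap among the 3. Colonocytes were lowest at 167 ± 18.1 CPM and overlapped lymphatic endothelial cells, plasma cells and undivided epithelial cells. Ier2 was highest in endothelial cells, at 934, 757, 950 and 960 CPM, above goblet cells (672 ± 24.8) without overlap. Plasma cells had the lowest Ier2 level, 125 ± 11.1 CPM.

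The feedback genes had no class that stood apart at the top. Dusp1 stood at 667, 651, 658 and 606 CPM in fibroblasts, which overlapped lymphatic endothelial cells at 595, 607, 551 and 422 CPM, and at 145 ± 7.73 CPM in undivided epithelial cells, a ratio of 4.45. Zfp36 stood at 1574, 1471, 1693 and 1770 CPM in macrophages and monocytes, overlapping endothelial cells at 1349, 1092, 1486 and 1473 CPM. Its lowest class was lymphatic endothelial cells (368 ± 69.6), a ratio of 4.42. For both genes, as for Atf3, 8 of the 10 neighbouring pairs of classes overlapped.

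**Figure D1:**
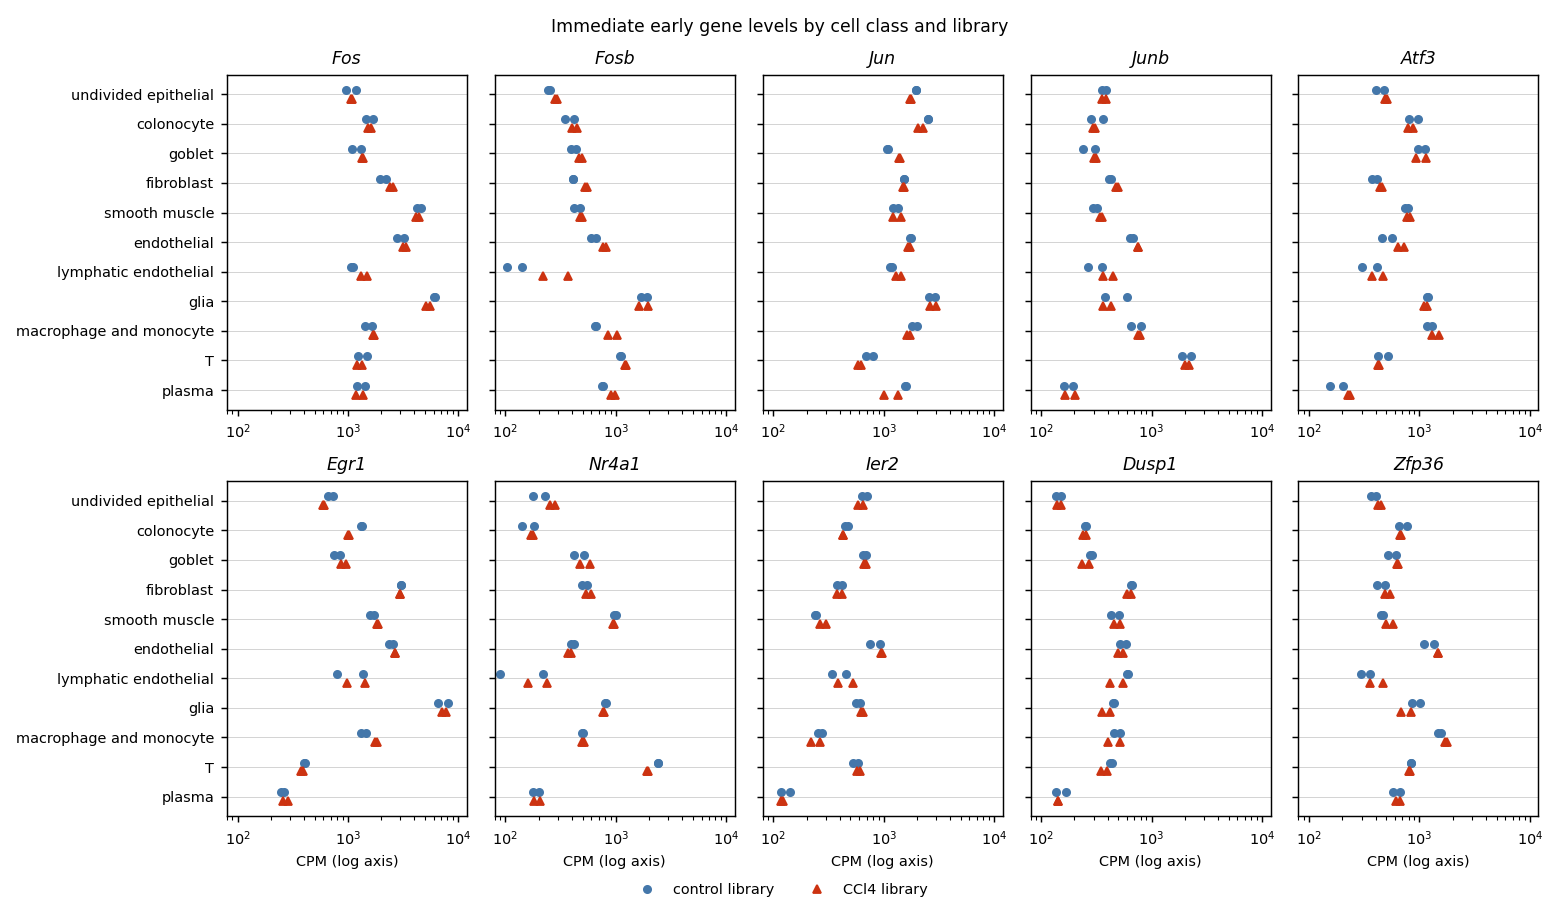
Level of each immediate early gene in 11 cell classes, in CPM on a log axis, 1 symbol per library (circles control, triangles CCl4). Glia lie to the right for Fos, Fosb, Jun and Egr1 and T cells for Junb and Nr4a1, and within most classes the 4 libraries lie closer together than the classes do.

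The low end of these scales was set beside erythroid-like cells, a class of 45 cells that is expected to transcribe little of these genes (median 2779 counts a cell, 1 cell from a control library). After thinning to 1000 counts, 24.4% of them held an Egr1 count (exact 95% interval 12.9 to 39.5), against 20.5% of plasma cells. For Nr4a1 the share was 11.1% (3.71 to 24.1), against 9.48% of lymphatic endothelial cells, and for Ier2 13.3% (5.05 to 26.8), against 11.4% of plasma cells. These lowest values were not above this background, so the ratio of 28.1 for Egr1 is not read as a ratio of expression. Immunoglobulin takes up many of the 1000 counts of a plasma cell and lowers its shares, so the plasma values do not show that the genes are off there. For Fos the erythroid share was 17.8% (8.0 to 32.1) against 47.5% in the lowest fitted class, and for Dusp1 2.22% (0.0562 to 11.8) against 12.9%. For Fosb, Jun, Junb and Atf3 the share in the lowest fitted class lay above the erythroid share but within its interval, so it was not told apart from background either. Classes above the lowest can lie within these intervals too. Examples are Egr1 in T cells, at 25.6%, and Nr4a1 in undivided epithelial cells, at 17.4%. The intervals cover counting error alone.

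Immunoglobulin mRNA fills much of a plasma cell's counts, and mitochondrial mRNA much of a colonocyte's. With both left out of the total, plasma cells became the highest class for Fosb, at 1949 CPM against 1872 in glia, and for Jun, at 3150 against 2884, with ranges that overlapped those of glia. The leading class of the other 8 genes was the same. Plasma cells were then no longer the lowest class for any gene. They ranked 10 of 11 for Egr1, at 601 CPM, with T cells last at 421. For Junb they ranked 7, at 411 CPM, for Atf3 9, at 468, and for Ier2 9, at 284, and the lowest classes were goblet cells, lymphatic endothelial cells, and macrophages and monocytes in turn. The lowest class of Fos and Nr4a1 became lymphatic endothelial cells.

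Classes hid differences between their clusters. Smooth muscle was made of a cluster led by Pln, Notch3 and Rgs5, genes of contractile cells around vessels, and a cluster led by Actg2 and Cnn1, genes of visceral muscle. Nr4a1 stood at 1520 CPM in the first and 283 in the second, between 4.81 and 6.06 times as much in each of the 4 libraries. Fos (5641 against 2671 CPM), Egr1 (2437 against 894), Atf3 (1096 against 375) and Fosb (645 against 240) were likewise higher in the first in 4 of 4 libraries. Jun and Junb were lower in the first in 4 of 4, at 1207 against 1397 and 291 against 361 CPM. These cluster values are unscaled CPM and carry no test, since clusters were drawn from the same cells.

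Fibroblasts split in another way. The cluster led by C3 and Pi16 had more Egr1 (3550 against 2065 CPM), Nr4a1 (681 against 318), Dusp1 (764 against 443) and Fosb (576 against 307) than the cluster led by Adamdec1, in 4 of 4 libraries each. Fos and Jun were lower in the C3 cluster in 4 of 4, at 2061 against 2622 and 1354 against 1785 CPM. For Zfp36 the C3 cluster was higher in 2 of 4 libraries.

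**Figure D2:**
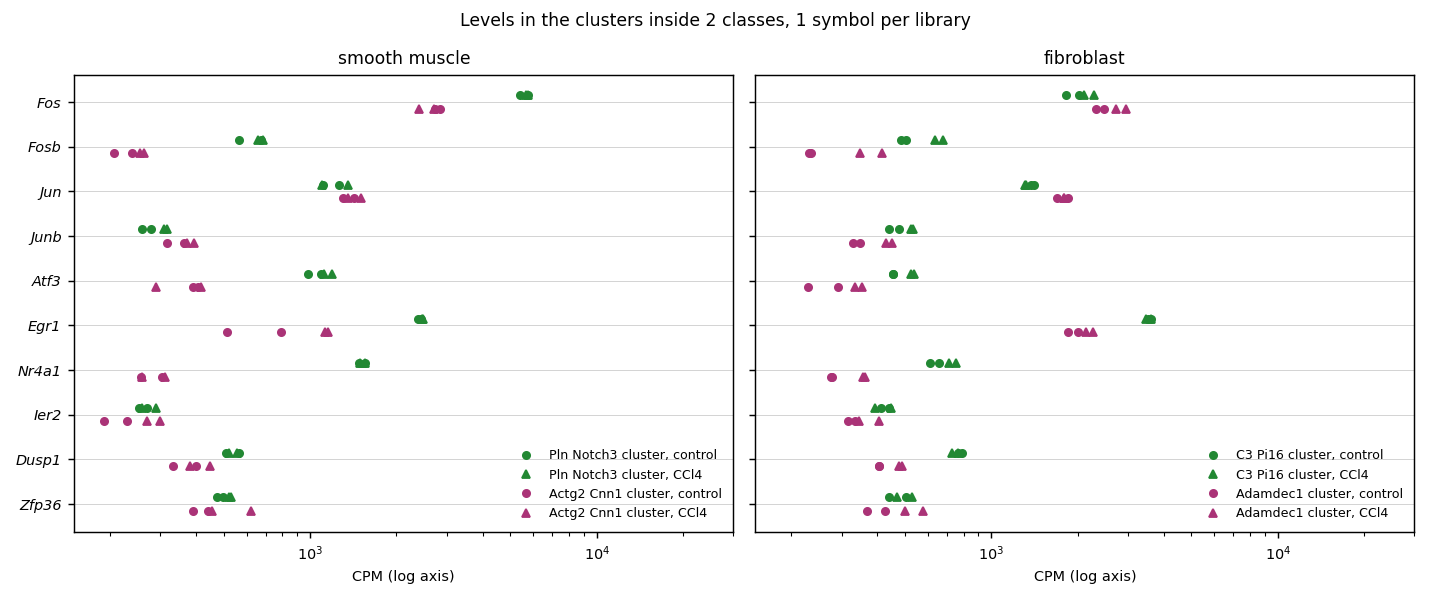
Level of each gene in the clusters inside smooth muscle and fibroblasts, in CPM on a log axis, 1 symbol per library (circles control, triangles CCl4; colours mark the cluster). Nr4a1 separates the smooth muscle clusters, at 1520 against 283 CPM, and Fos and Jun lie on the opposite side from Egr1 in fibroblasts.

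A cluster that took no class name had a summed level like that of glia. It held 572 cells and was led by Gata3, Il5, Il4, Csf2 and Il13, type 2 cytokine genes and their regulator. Its Nr4a1 level was 7198, 6839, 6337 and 6379 CPM, where the mean of T cells was 2163, and the 10 genes summed to between 21171 and 21828 CPM, within the range of glia (19920 to 23347 CPM, unscaled). It ranked first of 18 clusters with at least 50 cells in every library for Nr4a1, Fosb (2274 CPM), Junb (2669), Zfp36 (2559) and Dusp1 (789). For Jun it ranked 15 of 18, at 1038 CPM, and for Egr1 14 of 18, at 421 CPM. T cells had a like contrast between clusters: Fos stood at 1386 CPM in the cluster led by Ccl5 and Ifng and at 337 in the cluster led by Tnfrsf9, Icos and Ctla4.

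Between the groups, 5 of 110 tests of a gene in a class passed an adjusted p of 0.05 (edgeR quasi-likelihood test, Benjamini-Hochberg adjustment over all genes of the class): 4 higher and 1 lower in the CCl4 libraries. Over all genes and classes 0.839% of tests were called higher and 0.501% lower. Fosb was higher in fibroblasts and in macrophages and monocytes, Egr1 was higher in macrophages and monocytes and lower in colonocytes, and Jun was higher in goblet cells. Fos, Junb, Atf3, Nr4a1, Ier2, Dusp1 and Zfp36 were called in 0 of 11 classes, with 15 of their 77 tests at an unadjusted p under 0.05. Over all genes, unadjusted p was under 0.05 in 414 of 5371 tests in lymphatic endothelial cells, the smallest share of a class. The largest share was 2038 of 12415 in undivided epithelial cells. With DESeq2 in place of edgeR, 5 tests were called higher and 1 lower. The p-values rest on the spread among these 4 libraries, and nothing says that a library is a separate set of animals, so that spread may be technical; exact permutation of 2 against 2 libraries gives no two-sided p under 0.333.

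Fosb in fibroblasts stood at 413 and 407 CPM in the control against 521 and 552 CPM in the CCl4 libraries. The groups did not overlap (log2 ratio 0.39, SE 0.0775, edgeR adjusted p = 0.0127), and 1.41% of all genes tested in fibroblasts were called higher. It was higher in both CCl4 libraries in the C3 cluster (483 and 506 against 637 and 679 CPM) and in the Adamdec1 cluster (234 and 231 against 347 and 416). Mitochondrial share was higher in the CCl4 libraries, and Fosb was lower in cells of higher mitochondrial share. Within cells under 5% mitochondrial counts Fosb was 421 and 436 against 563 and 601 CPM, and within cells of 10% to 25% it was 325 and 313 against 366 and 396 CPM. These bins pool the 2 clusters, whose median mitochondrial share was 2.43% (C3) and 4.57% (Adamdec1). The part of mitochondrial share in the difference was not tested. The call was lost without CCl4 library 2 (0.36, adjusted p = 0.156).

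Macrophages and monocytes showed the larger Fosb difference, 659 and 655 CPM in the control against 846 and 1030 CPM in the CCl4 libraries (0.51, SE 0.103, edgeR adjusted p = 0.0140), where 0.944% of all genes were called higher. Without CCl4 library 2 the log2 ratio was 0.36 with an adjusted p of 0.313, and with doublets kept 0.40 with 0.0974. Egr1 in the same class stood at 1460 and 1310 against 1778 and 1829 CPM (0.38, SE 0.0877, adjusted p = 0.0353), with no overlap. This call was lost under 4 of 13 alternatives: with doublets kept (adjusted p = 0.0506), without control library 2 (0.0789), and without CCl4 library 1 (0.0957) or 2 (0.239). In cells under 5% mitochondrial counts both genes kept their order, Fosb at 699 and 684 against 932 and 1138 CPM and Egr1 at 1536 and 1373 against 1828 and 1888 CPM. In cells of 5% to 10% the groups overlapped for both genes.

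Egr1 in colonocytes was the lower call, at 1332 and 1306 CPM in the control against 996 and 1024 CPM in the CCl4 libraries (-0.38, SE 0.0792, edgeR adjusted p = 0.0167), where 0.71% of all genes were called lower. Within cells of 5% to 10% mitochondrial counts it stood at 1674 and 1570 against 986 and 1060 CPM, and within those of 10% to 25% at 1207 and 1268 against 966 and 1038 CPM. The call was lost without CCl4 library 1 (adjusted p = 0.0541) and with no low-count filter (0.303). With stricter cells the ratio was -0.67 (edgeR adjusted p = 6.771e-06).

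Jun in goblet cells, the secretory cells that make colonic mucus, stood at 1092 and 1069 CPM in the control against 1406 and 1388 CPM in the CCl4 libraries (0.37, SE 0.0688, edgeR adjusted p = 0.0165), where 0.956% of all genes were called higher. This call was kept under 13 of 13 alternatives. Among goblet cells of 5% to 10% mitochondrial counts Jun was 972 and 1058 against 1399 and 1436 CPM. In cells under 5% it was 1150 and 926 against 945 and 973 CPM, and in cells of 10% to 25% it was 1559 and 1521 against 1553 and 1593 CPM, so in these 2 bins the groups overlapped. The median mitochondrial share of goblet cells was 5.94% and 6.18% in the control against 8.01% and 7.45% in the CCl4 libraries, and its part in the difference was not otherwise tested.

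**Figure D3:**
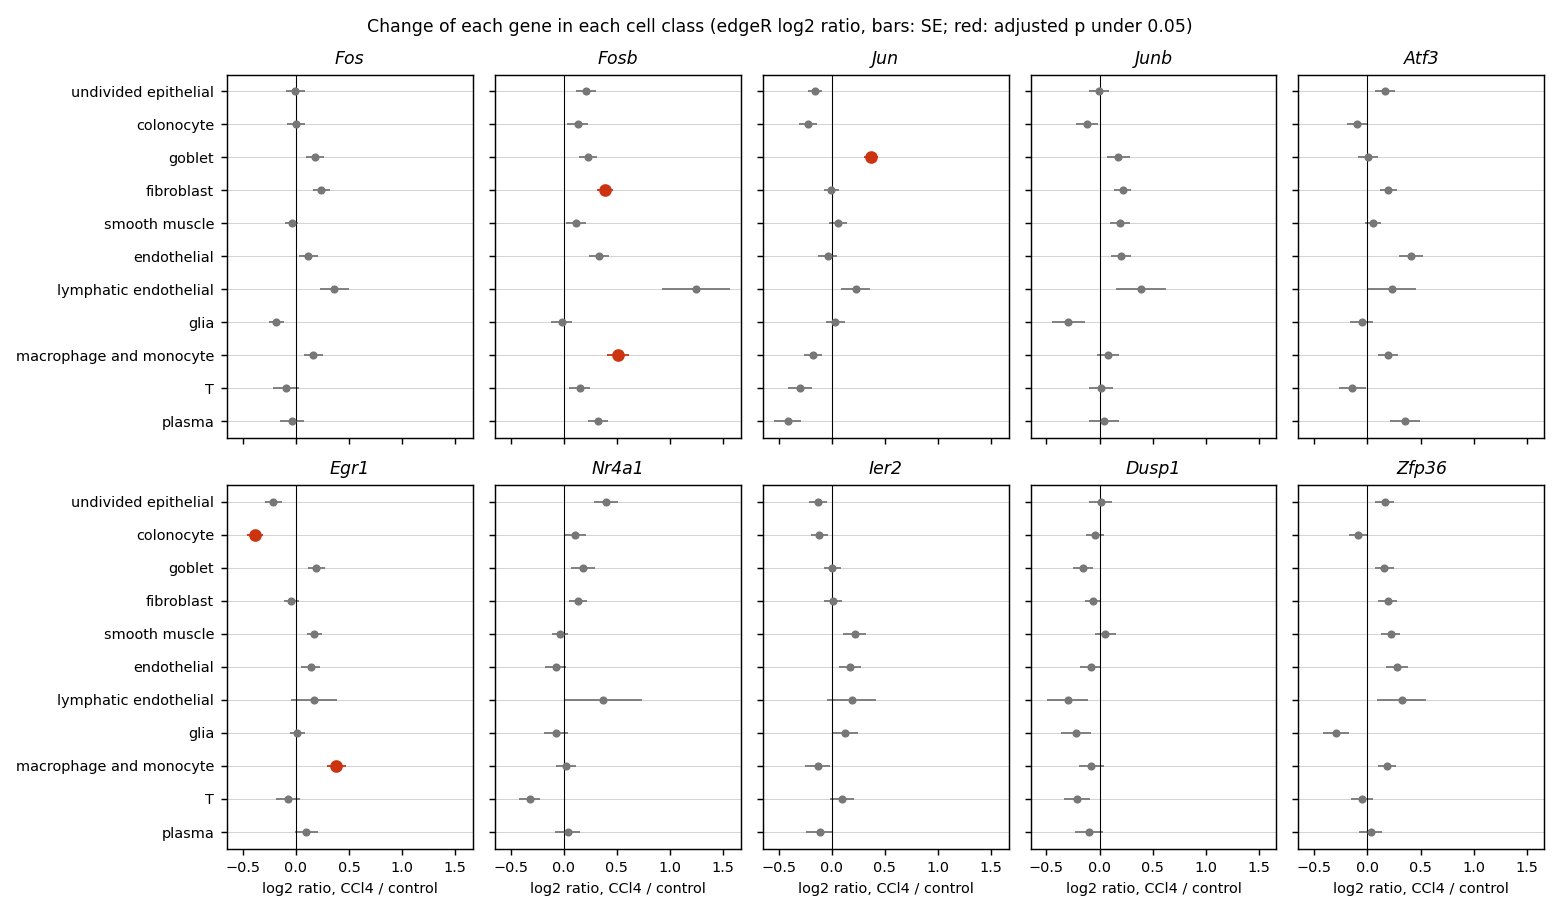
Log2 ratio of CCl4 over control for each gene in 11 cell classes (points, with bars of 1 SE from edgeR; red marks an adjusted p under 0.05). Of 110 points 5 are red, and Fosb lies above 0 in 10 of 11 classes while Dusp1 lies below 0 in 9 of 11.

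Counted over all tests, called or not, the groups lay apart unevenly across the genes. For Fosb both CCl4 libraries lay above both control libraries in 8 of 11 classes and below in 0; over all genes and classes 21.2% lay above and 20.7% below. The widest Fosb ratio, 1.24 in lymphatic endothelial cells (SE 0.319), was not called (adjusted p = 0.243). For Atf3 both lay above in 5 of 11 and below in 0, for Dusp1 above in 0 and below in 4, and for Jun above in 2 and below in 6. Over all 110 tests 36 (32.7%) lay above and 20 (18.2%) below, and the median log2 ratio was 0.046. The medians over all genes lay between -0.0059 and 0.0081 in the 11 classes. The classes of a library share its preparation and are not replicates of one another.

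Nr4a1 in T cells is an example of a clear gap without a call, at 2394 and 2412 against 1944 and 1903 CPM (-0.32, SE 0.0985, edgeR adjusted p = 0.292). Nr4a1 in undivided epithelial cells pointed the other way, at 227 and 178 against 279 and 253 CPM (0.40, SE 0.113, adjusted p = 0.0650). It passed the threshold with DESeq2 (adjusted p = 0.0452) and under 5 other alternatives, with the highest ratio among these without control library 1 (0.60, edgeR adjusted p = 8.777e-05). The ratio was 0.12 with stress genes among the variable genes (adjusted p = 0.504), 0.24 without control library 2 (0.224), 0.33 without CCl4 library 1 (0.496) and 0.78 with stricter cells (0.0603). Jun in plasma cells stood at 1611 and 1551 against 1353 and 1018 CPM (-0.41, SE 0.130, adjusted p = 0.207).

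Whether the CCl4 effect differed between classes was tested with an interaction term over the 11 classes, with library as a block. It was called for 6 of the 10 genes: Jun (edgeR adjusted p = 1.325e-05), Fos (0.00419), Fosb (0.0200), Zfp36 (0.0237), Egr1 (0.0294) and Nr4a1 (0.0336). Over all genes 5.22% were called. Jun ran from -0.41 in plasma cells to 0.37 in goblet cells, and Egr1 from -0.38 in colonocytes to 0.38 in macrophages and monocytes. Junb (0.199), Atf3 (0.125), Ier2 (0.524) and Dusp1 (0.669) were not called. Atf3 was called with stricter cells (edgeR adjusted p = 0.000358) and with no low-count filter (0.00646). Junb, Ier2 and Dusp1 were called under no alternative that kept all 4 libraries.

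In single cells thinned to 1000 counts, the mean number of the 10 genes found in a cell was highest in glia, at 5.40, 5.54, 5.58 and 5.78, and lowest in plasma and lymphatic endothelial cells. Immunoglobulin takes up many of the 1000 counts of a plasma cell and lowers the number found there. This mean number was higher in both CCl4 than in both control libraries in 9 of 11 classes, and the ranges overlapped in colonocytes and undivided epithelial cells. No other set of genes was counted this way, so it is not known in how many classes other genes would do the same. In endothelial cells it was 4.86 and 4.73 in the control against 5.29 and 5.48 in the CCl4 libraries. There, 57.7% and 55.1% of control cells held at least 5 of the 10 genes, against 68.7% and 71.2% with CCl4. The share of such cells was higher in both CCl4 libraries in 9 classes and overlapped in 1. It was lower in both in 1 class, colonocytes, at 36.6% to 38.6% in the control against 31.0% to 35.7%. The summed share of counts was higher in both CCl4 libraries in 6 classes, lower in both in 2 and overlapping in 3. In endothelial cells it moved less than the number of genes, at 1.25% and 1.17% against 1.30% and 1.31%. In T cells it was 0.995% and 1.05% against 0.964% and 0.974%, lower in both CCl4 libraries, while the number of genes found was higher, at 4.06 and 4.14 against 4.28 and 4.36. The median share per cell was higher in both CCl4 libraries in 4 classes and overlapped in 7. These values over the 10 genes are descriptions and carry no test.

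**Figure D4:**
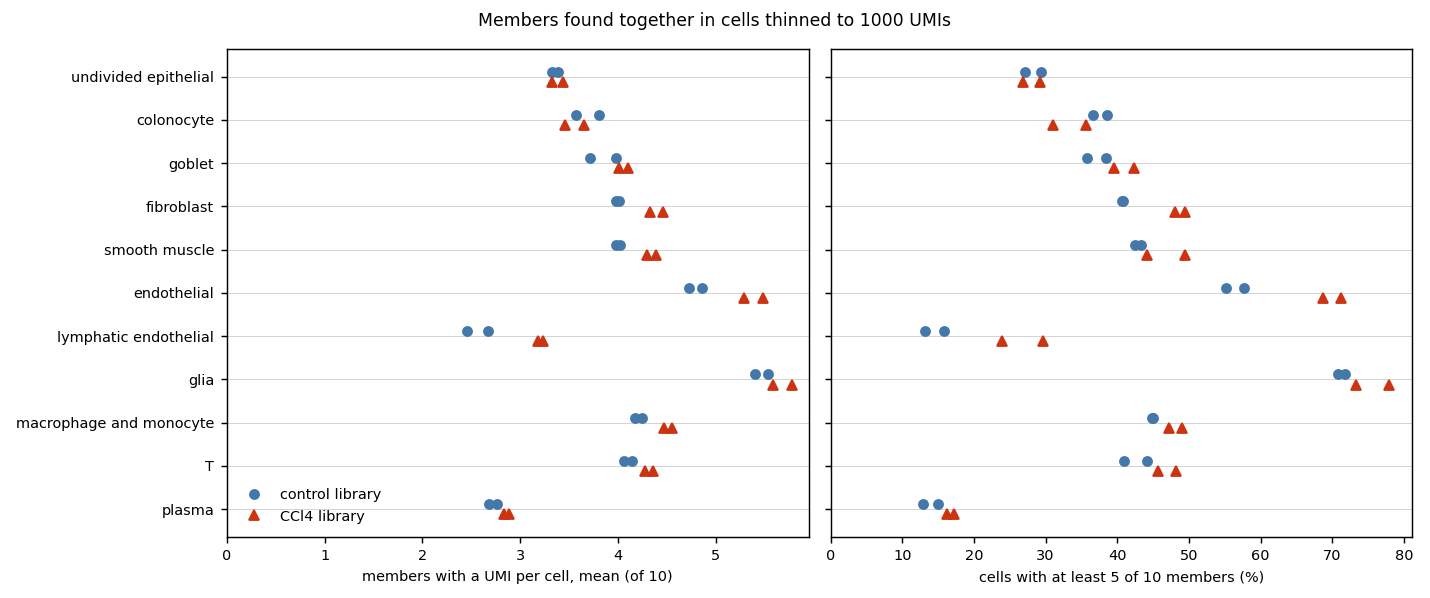
Mean number of the 10 genes with a count per cell (left) and share of cells with at least 5 of them (right) after thinning every cell to 1000 counts, by class, 1 symbol per library. Glia are highest, at 5.40 to 5.78 genes a cell, and the CCl4 triangles lie to the right of the control circles in 9 of 11 classes in the left panel. Other sets of genes were not counted this way.

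Within a class and library, the genes tended to be found in the same cells, loosely. Over 44 profiles, each a class in a library, the mean Pearson r of thinned log counts across cells was above 0 for 45 of 45 pairs, from 0.0546 for Fosb with Dusp1 to 0.294 for Fos with Egr1. Fosb with Egr1 (0.217), Jun with Egr1 (0.205), Fos with Jun (0.203) and Fos with Zfp36 (0.200) followed. The median over pairs was 0.125. For 8 pairs r was above 0 in every profile. Cells of a profile share their library, class and thinned depth, and values of this size in sparse counts are a description. A profile can pool clusters that differ in these genes, as in smooth muscle. The r was not taken within clusters, here or for the genes below, so the part of such pooling was not tested. Pairs of other genes were not correlated as a background.

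Outside the 10, the gene whose thinned log counts went most with their summed share was Hspa1a, the inducible heat shock protein 70 gene (mean r 0.367, above 0 in 44 of 44 profiles). Its near-identical copy Hspa1b, whose reads may be split with it, came next (0.334). Other genes of the related lists among the most alike were Hsp90aa1 (0.277), Nfkbia (0.241), Hspa8 (0.228) and Dnajb1 (0.226). Among the 15 most alike of 3518 genes compared, 7 were of a list of 13 heat shock genes and 4 of a list of other primary response genes: Nfkbia, Ppp1r15a, Gadd45b and Klf4. The median r was 0.192 over the heat shock list, 0.0807 over 41 other primary response genes, 0.0010 over 8 upstream factors and -0.0038 over all genes compared. Lars2 (-0.113) and Gm26561 (-0.0995) lay at the other end.

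**Figure D5:**
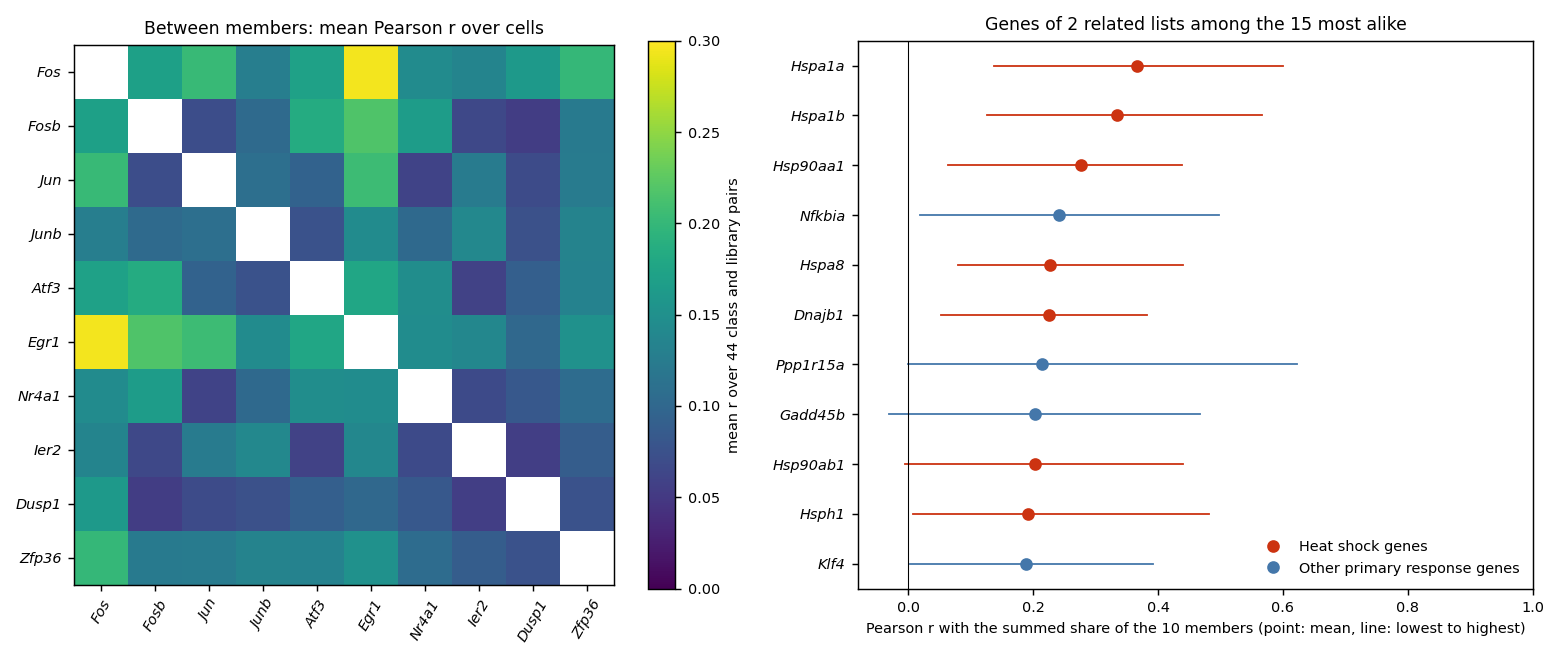
Left, mean Pearson r across cells for each pair of the 10 genes over 44 class and library profiles. Right, those of the 15 other genes most alike to the summed share of the 10 that are on the heat shock or primary response list (point mean r, line lowest to highest of 44 profiles), led by Hspa1a at 0.367.

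The related lists were called in both directions. Of 45 other primary response genes, 16 of 487 tests of a gene in a class were called higher and 12 lower (5.75% in all, where 0.839% of all tests were called higher and 0.501% lower), with a median log2 ratio of 0.084. Maff, a small bZIP partner of AP-1 proteins, rose in colonocytes, macrophages and monocytes, and undivided epithelial cells (log2 ratios 0.49 to 0.93, edgeR). Irf1, an interferon-induced transcription factor, fell in the same 3 classes (-0.62 to -0.44). Of 13 heat shock genes, 7 of 143 tests were called higher and 3 lower (6.99% in all), with a median of 0.065. Hspb1, a small heat shock protein, rose in colonocytes, goblet and undivided epithelial cells (0.84 to 0.91), and Hspa1a fell in T cells and smooth muscle (-0.65 and -0.28). Of 14 upstream factors, such as Srf, Creb1 and the MAP kinases, 0 of 142 tests were called higher and 1 lower, Map2k2 in undivided epithelial cells (-0.57).

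Transcripts of plasma and epithelial cells that can leak into other droplets were called more often, in 41.0% of tests. Of 134 tests of 13 such genes, 24 were called higher and 31 lower, with Iglc3 lower and Muc2 higher in 9 classes each. These tests include the plasma and epithelial classes that make the transcripts, and plasma cells are among the 9 for Iglc3. The 41.0% is thus not a share for leaked RNA alone. Their summed level in fibroblasts was 1326 and 1425 CPM in the control against 768 and 712 CPM in the CCl4 libraries. In macrophages and monocytes it was 1422 and 1502 against 812 and 2498 CPM, and in glia 1572 and 1265 against 1025 and 6236 CPM. The part of free RNA in the differences of the 10 genes was not tested.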

How the data were processed

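Gene counts per cell barcode were measured in 4 colon libraries. The deposited matrices held whole-number counts, not normalized, written by PISA 0.12b per the file headers. The build is GRCm38 by the submitters' processing notes; no aligner is named in the sources used. The lowest barcode total was 1001 or 1002, so each deposited barcode held over 1000 counts. Between 8191 and 10738 barcode names were shared by pairs of libraries, which are running cell numbers, and 0 of 38852 cell profiles occurred in another library.

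Cells under 200 genes or over 25% mitochondrial counts were left out, and the 6% with the highest Scrublet scores in each library (scanpy 1.11.5) were removed, since its automatic threshold marked between 0 and 2 cells a library. Clustering used 2000 variable genes without the 10 genes and the related lists, 30 principal components, 15 neighbours and Leiden resolution 1.0 (leidenalg 0.10.2), with no batch correction. This gave 23 clusters and 14 named classes, and 5 clusters with 6193 cells stayed unnamed. A name needed 3 markers raised by a log2 ratio of 1 over all other cells and found in 10% of cells. Details of this rule, and erythroid cells as a background, were chosen after the data were seen.

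Counts were summed per class and library. The 11 classes that had 50 or more cells in each of the 4 were tested by quasi-likelihood in edgeR 4.0.16 (R 4.3.3; TMM, filterByExpr, treatment as factor; Benjamini-Hochberg at 0.05; two-sided). The script was tested on simulated data. DESeq2 1.42.0 was an alternative. Likeness was taken over genes found in at least 5% of cells of 3 classes. The 10 genes, the related lists and the rule for naming other genes (called in at least 3 classes in 1 direction, and the 15 most alike) were chosen with earlier results of these data known. Hspa1a in T cells and smooth muscle, Map2k2, Lars2 and Gm26561 are outside that rule and were named after their values were seen. Of the 15 most alike, 1 gene is not reported here.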

Additional observations from a re-analysis of the deposited data

Results flagged for a closer look

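The CCl4 effect on 6 of the 10 genes differed between cell classes by the interaction test of edgeR over 11 classes, which is why they are listed: Fos (adjusted p = 0.004193), Fosb (0.02001), Jun (1.325e-05), Egr1 (0.02937), Nr4a1 (0.03357) and Zfp36 (0.02375). Over all genes 5.22% were called by this test. Jun and Egr1 were called with each of the 11 alternatives run for this test. Fos was not called without CCl4 library 2 (adjusted p = 0.198). Fosb was not called with doublets kept (0.0752), without control library 2 (0.171) or without CCl4 library 2 (0.30). Nr4a1 was not called on library size without TMM (0.137) or with stress genes among the variable genes (0.251). In the latter setting 0 of the 10 genes entered the variable genes. Cells moved between classes there, with 4407 undivided epithelial cells against 2806 in the main clustering. Zfp36 was not called with doublets kept (0.0940), without control library 2 (0.181) or without CCl4 library 1 (0.128).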

How the results depend on the processing

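The count of calls among 110 tests, 4 higher and 1 lower, moved with the processing, and the cause was not tested. Higher calls numbered 7 on library size without TMM and 7 with no low-count filter, and 2 with doublets kept. Lower calls numbered 2 with stricter cells (at least 500 genes, at most 10% mitochondrial counts). Leaving out 1 library gave 2 to 9 higher calls (2 without CCl4 library 2, 9 without control library 1) and 0 to 2 lower calls (0 without CCl4 library 1). With the replicate number as a block there were 7 higher and 2 lower calls. Same-numbered libraries deviated together with correlations of only -0.019 to 0.177, and the labels do not say that the numbers pair them. Over 13 alternatives 111 of 1430 ratios changed sign, 0 of them of a called test; the uncalled ratios that did so were at most 0.37 in size. Called genes of the interaction test numbered 4 to 8 against 6. The leading class changed for 1 gene by share of thinned cells, and for 2 on totals without mitochondrial and immunoglobulin counts, an alternative chosen after seeing the data. Depth limits lymphatic endothelial cells most, with 63 to 109 cells a library.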
